A study of Mus musculus with 12 samples.

Results

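Spp1, Gpnmb, Arg1, Trem2, Mmp12, Fabp5, Cd9 and Tgfbi were followed in single-nucleus RNA sequencing of 12 mouse lungs. These 8 genes were taken by symbol from the 31053 genes counted in each library, because they mark the macrophages that gather in scarred tissue. Their unique molecular identifiers (UMIs, each standing for 1 captured RNA molecule) were read across cell classes and across the 4 groups of the study, and the nuclei that carried Spp1 were located.

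C57BL/6J mice received bleomycin or PBS into the trachea, and later NVP-BHG712 or vehicle by mouth. Bleomycin injures the lung and is followed by fibrosis. NVP-BHG712 is a small molecule inhibitor of the receptor tyrosine kinase EphB4. The groups were PBS_Vehicle, PBS_NVP-BHG712, Bleo_Vehicle and Bleo_NVP-BHG712, with 3 libraries each, 1 lung per library, and the labels name no genetic change. Nuclei were sorted by their DNA stain alone. Values per library are given in the order of replicates 1, 2 and 3, which have no order of their own.

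Scar-associated macrophages arise largely from recruited monocytes after lung injury and take up lipid, debris and apoptotic cells. Spp1 encodes osteopontin, a secreted matrix protein that binds CD44 and several integrins. Trem2 is a lipid-sensing receptor, Gpnmb a glycoprotein of lysosomal membranes, Cd9 a tetraspanin, Fabp5 a carrier of fatty acids, Arg1 the arginase that makes ornithine, Mmp12 the macrophage elastase and Tgfbi a matrix protein induced by TGF-beta. Osteopontin is also made by mesenchymal cells, and Cd9 is widely expressed.

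Libraries held 3556084 to 61947690 UMIs, and 44611 of 49163 barcodes were kept as nuclei, 1168 to 11867 per library. Of 48838 distinct barcodes, 324 were found in more than 1 library. No 2 libraries shared more than 0.845% of the barcodes of the smaller one. Clusters were named from marker genes into 17 classes. The limits for naming were set after the clusters had been seen, and they left unnamed a mean of 6.45%, 2.03%, 2.27% and 2.26% of nuclei in PBS_Vehicle, PBS_NVP-BHG712, Bleo_Vehicle and Bleo_NVP-BHG712, with 16.2% in replicate 2 of PBS_Vehicle. Alveolar macrophage-like nuclei (4005) and interstitial macrophage or monocyte-like nuclei (1545) were pooled as macrophages. The Bleo_Vehicle libraries stood apart: their median share of mitochondrial UMIs per nucleus was 1.62%, 1.18% and 0.682%, against at most 0.0472% in every other library. Mitochondrial RNA lies outside the nucleus. Bleo_Vehicle carried batch numbers only, 1 for replicates 1 and 2 and another for replicate 3, and the other groups run numbers only. Neither bleomycin group shared a run or batch number with another group. In every comparison with bleomycin the group and the run or batch therefore cannot be told apart. What part the mitochondrial share, the run or the batch has in any difference that involves Bleo_Vehicle was not tested.

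The genes lie on 7 chromosomes in the annotation of GRCm38. Spp1 (ENSMUSG00000029304) spans chr5:104435118-104441050 on the plus strand, and Gpnmb (ENSMUSG00000029816) chr6:49036546-49070929 on the plus strand. Arg1 (ENSMUSG00000019987) lies at chr10:24915221-24927484 on the minus strand and Trem2 (ENSMUSG00000023992) at chr17:48346401-48354147 on the plus strand. Mmp12 (ENSMUSG00000049723) lies at chr9:7344381-7369499 on the plus strand, Fabp5 (ENSMUSG00000027533) at chr3:10012548-10016607 on the plus strand, Cd9 (ENSMUSG00000030342) at chr6:125460266-125494791 on the minus strand and Tgfbi (ENSMUSG00000035493) at chr13:56609523-56639562 on the plus strand. All 8 are protein-coding. Spp1 overlaps Gm42793 on its own strand, so reads in the shared stretch are uncertain, while Mmp12 and Cd9 overlap genes on the opposite strand.

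Start-site windows are shown for Spp1, Gpnmb, Mmp12 and Trem2, which were higher together in Bleo_Vehicle lungs (below). They were picked because they hold letters of the motif bound by PU.1, the factor of the myeloid lineage, or by AP-1, a factor of activated cells. Windows run from 250 bases before to 50 after a RefSeq start on GRCm38.p6, 5′ to 3′ on the strand of the gene, and capitals mark a motif on either strand. They were found for 6 of the 8 genes. The Spp1 window is chr5:104434861-104435160 (plus), Gpnmb chr6:49036268-49036567 (plus), Mmp12 at its second listed start chr9:7347124-7347423 (plus) and Trem2 chr17:48346151-48346450 (plus).
Spp1: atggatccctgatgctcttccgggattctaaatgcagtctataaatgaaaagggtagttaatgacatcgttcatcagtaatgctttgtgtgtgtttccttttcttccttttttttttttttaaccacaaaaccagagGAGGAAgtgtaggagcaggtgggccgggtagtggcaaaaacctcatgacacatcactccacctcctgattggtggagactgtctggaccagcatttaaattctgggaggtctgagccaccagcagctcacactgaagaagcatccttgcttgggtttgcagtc
Gpnmb: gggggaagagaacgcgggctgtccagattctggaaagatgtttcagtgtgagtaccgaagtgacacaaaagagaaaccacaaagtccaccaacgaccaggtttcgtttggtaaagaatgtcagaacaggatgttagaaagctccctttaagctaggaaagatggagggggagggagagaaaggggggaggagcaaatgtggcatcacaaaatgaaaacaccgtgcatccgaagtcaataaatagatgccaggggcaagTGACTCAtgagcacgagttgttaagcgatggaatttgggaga
Mmp12: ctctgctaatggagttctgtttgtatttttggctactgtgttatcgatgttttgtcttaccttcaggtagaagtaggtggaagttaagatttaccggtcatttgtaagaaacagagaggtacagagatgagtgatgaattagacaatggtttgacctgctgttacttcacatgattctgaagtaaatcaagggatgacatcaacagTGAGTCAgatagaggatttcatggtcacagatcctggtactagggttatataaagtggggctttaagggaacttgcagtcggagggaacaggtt
Trem2: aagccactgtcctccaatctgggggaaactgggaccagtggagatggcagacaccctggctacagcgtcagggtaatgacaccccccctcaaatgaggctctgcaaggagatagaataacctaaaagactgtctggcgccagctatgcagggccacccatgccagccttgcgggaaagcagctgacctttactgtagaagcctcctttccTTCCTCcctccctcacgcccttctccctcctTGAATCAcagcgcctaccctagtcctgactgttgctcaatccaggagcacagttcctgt

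The PU.1 letters GAGGAA stood at -113 from the first listed Spp1 start and at -40 in Trem2, where they lie on the other strand and read as their reverse complement. The AP-1 letters TGANTCA stood at -44 in Mmp12, at -9 in Trem2 and at 9 in Gpnmb. The middle letter N is G in Mmp12, A in Trem2 and C in Gpnmb. The first Mmp12 start had PU.1 letters at -86. The windows of Cd9 and Tgfbi, and that of a second listed Spp1 start, held neither motif. The E-box CACGTG was in none of the windows of these genes. The matches do not overlap in these windows. Of 32851 windows of this length, 28.3% held GAGGAA, 7.81% TGANTCA and 7.15% CACGTG, so a match is common and is a description only.

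In macrophage nuclei Spp1 separated Bleo_Vehicle from every other group. Levels are given as CPM, the UMIs of a gene per 1000000 UMIs of the nuclei named. Spp1 was at 11.4, 12.4 and 9.64 in PBS_Vehicle, 23.0, 30.2 and 46.8 in PBS_NVP-BHG712, 904, 377 and 206 in Bleo_Vehicle and 19.4, 16.1 and 40.7 in Bleo_NVP-BHG712. All 3 Bleo_Vehicle libraries were above the other 9, and they differed among themselves by more than the other groups did. Replicate 3, the lowest of them, had a batch number of its own, and what part the batch has was not tested. In the edgeR quasi-likelihood fit of UMIs summed per library, Spp1 was higher in Bleo_Vehicle than in PBS_Vehicle by 5.59 ± 0.69 on the log2 scale (SE, n = 3 and 3, Benjamini-Hochberg adjusted p = 0.00133). From Bleo_Vehicle to Bleo_NVP-BHG712 the log2 change was -4.38 ± 0.68 (edgeR adjusted p = 0.00615). Both calls held in each of 12 fits that left out 1 library.

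**Figure D1:**
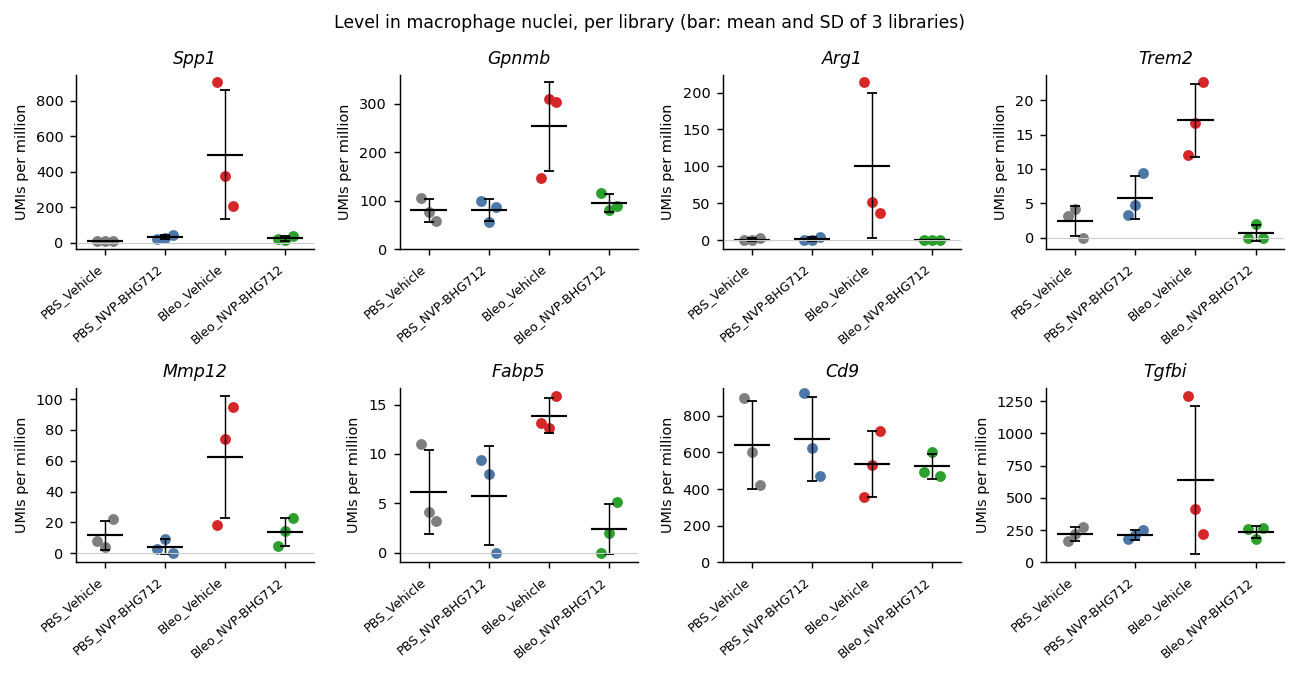
Level of each of the 8 genes in macrophage nuclei, in CPM of macrophage UMIs, for the 4 groups. Points are libraries, the line is the mean and the bar the SD of 3 libraries. Spp1 in Bleo_Vehicle lay between 206 and 904 and at most at 46.8 in the other groups, whereas the Cd9 groups overlap.

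Of the 6 members that passed the filter on low counts in macrophages, 4 were higher in Bleo_Vehicle than in PBS_Vehicle (edgeR adjusted p under 0.05), where 6.42% of 7102 genes were called higher. They were Spp1, Gpnmb, Arg1 and Mmp12, while Tgfbi and Cd9 did not pass the test. Trem2 and Fabp5 were too low to be tested. From Bleo_Vehicle to Bleo_NVP-BHG712, 3 members were called lower (Spp1, Gpnmb and Arg1), against 4.52% of all genes. Both comparisons share the Bleo_Vehicle libraries, so the 2 counts are not independent.

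The other secreted and matrix-acting members were Mmp12 and Tgfbi. Mmp12 was at 7.88, 4.12 and 22.5 CPM in PBS_Vehicle, 2.73, 9.53 and 0 in PBS_NVP-BHG712, 18.6, 74.0 and 95.2 in Bleo_Vehicle and 4.84, 14.1 and 22.9 in Bleo_NVP-BHG712. Replicate 1 of Bleo_Vehicle lay below the highest PBS_Vehicle library, so the groups overlap. Mmp12 was called higher after bleomycin with vehicle (log2 change 2.86 ± 0.65, edgeR adjusted p = 0.0155), a call lost without replicate 1 or 2 of PBS_Vehicle or replicate 2 of Bleo_Vehicle (adjusted p up to 0.120). Its difference between Bleo_NVP-BHG712 and Bleo_Vehicle was -2.12 ± 0.67 and did not pass (edgeR adjusted p = 0.0717). Tgfbi was at 169, 219 and 273 CPM in PBS_Vehicle, 178, 211 and 253 in PBS_NVP-BHG712, 1291, 411 and 218 in Bleo_Vehicle and 261, 179 and 267 in Bleo_NVP-BHG712. Replicate 3 of Bleo_Vehicle lay within the PBS_Vehicle range, and neither difference passed (1.72 ± 0.61, edgeR adjusted p = 0.118, and -1.58 ± 0.62, adjusted p = 0.164).

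Few Arg1 UMIs were found outside Bleo_Vehicle. Macrophages held 195, 91 and 202 Arg1 UMIs in the 3 Bleo_Vehicle libraries (214, 52.2 and 36.5 CPM), 1 UMI in the 3 PBS_Vehicle libraries together, 2 in PBS_NVP-BHG712 and 0 in Bleo_NVP-BHG712. Over the group, the Bleo_Vehicle level was 199 times that of PBS_Vehicle, with a counting interval of 35.5 to 7858 that covers counting error only, and at least 21.8-fold higher than that of Bleo_NVP-BHG712, taking 3 UMIs over the group as the floor. The fit called Arg1 in both comparisons (edgeR adjusted p = 0.0157 and 0.0387). The first call was lost without any 1 of the PBS_Vehicle libraries and the second in 9 of 12 left-out fits (adjusted p up to 0.125 and 0.115).

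The lysosomal and lipid-handling members behaved unevenly. Gpnmb was at 106, 76.3 and 57.8 CPM in PBS_Vehicle, 99.1, 55.6 and 86.6 in PBS_NVP-BHG712, 147, 310 and 303 in Bleo_Vehicle and 116, 80.5 and 89.1 in Bleo_NVP-BHG712. The Bleo_Vehicle libraries were above all others, by less than for Spp1. The log2 change was 1.68 ± 0.26 against PBS_Vehicle (edgeR adjusted p = 0.00143) and -1.52 ± 0.28 from Bleo_Vehicle to Bleo_NVP-BHG712 (adjusted p = 0.00615), and both calls held in all 12 left-out fits. Unlike Spp1, Arg1 and Tgfbi, which were highest in replicate 1 of Bleo_Vehicle, Gpnmb was lowest there, as were Trem2 and Mmp12.

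Trem2 and Fabp5 rested on few UMIs. Trem2 was at 3.15, 4.12 and 0 CPM in PBS_Vehicle, 3.33, 4.77 and 9.36 in PBS_NVP-BHG712, 12.0, 16.6 and 22.6 in Bleo_Vehicle and 0, 2.01 and 0 in Bleo_NVP-BHG712. The Bleo_Vehicle libraries did not overlap with those of the other groups, and over the group their level was 6.71 times that of PBS_Vehicle (165 and 10 UMIs, counting interval 3.56 to 14.3). Fabp5 was at 11.0, 4.12 and 3.21 CPM in PBS_Vehicle, 9.40, 7.94 and 0 in PBS_NVP-BHG712, 13.1, 12.6 and 15.9 in Bleo_Vehicle and 0, 2.01 and 5.09 in Bleo_NVP-BHG712. With so few UMIs, 122 in Bleo_Vehicle and 31 in PBS_Vehicle, its ratio was 1.60 (1.07 to 2.46).

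Cd9 did not follow the others. Its macrophage level was 895, 600 and 424 CPM in PBS_Vehicle, 924, 626 and 470 in PBS_NVP-BHG712, 358, 532 and 719 in Bleo_Vehicle and 494, 604 and 473 in Bleo_NVP-BHG712. The 4 groups overlap, and the difference between Bleo_Vehicle and PBS_Vehicle was -0.18 ± 0.27 (edgeR adjusted p = 0.777). It changed sign to 0.12 without replicate 1 of PBS_Vehicle.

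A count of 0 in a library allows a macrophage level of up to 14.5 CPM in replicate 1 of Bleo_NVP-BHG712, the shallowest, and 9.64 CPM in replicate 3 of PBS_Vehicle, taking 3 UMIs as the limit. By non-overlap alone, Spp1, Gpnmb, Arg1, Trem2 and Fabp5 had every Bleo_Vehicle library above every PBS_Vehicle library in macrophages. Of the 7102 genes that passed the filter on low counts, 11.8% did. The same 5 had every Bleo_NVP-BHG712 library below every Bleo_Vehicle library, where 13.4% of these genes did. Trem2 and Fabp5 did not pass that filter, so these shares do not cover them. Both had a count of 0 in replicate 1 of Bleo_NVP-BHG712, and its limit of 14.5 CPM lies above some of their Bleo_Vehicle values.

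Between the groups without Bleo_Vehicle no member was called in any fit. For PBS_NVP-BHG712 against PBS_Vehicle, 0 of the members passed in edgeR in whole lung, macrophages and nuclei outside macrophages, and 0% of all genes did. At an unadjusted p under 0.05 only Mmp12 in whole lung was found, and DESeq2 called 0 members. Macrophage Spp1 was nonetheless higher in each PBS_NVP-BHG712 library than in each PBS_Vehicle library, a separation seen upwards in 3.13% of genes, with a log2 difference of 1.39 ± 0.79 (edgeR adjusted p = 1.00). Within the run numbers that held both groups the direction was the same. The levels were 11.4 against 23.0 CPM in run number 1 and 12.4 and 9.64 against 30.2 CPM in run number 2. For Bleo_NVP-BHG712 against PBS_NVP-BHG712, 0 members and 0% of genes were called by edgeR, 0 members by DESeq2, and macrophage Spp1 differed by -0.17 ± 0.82. At an unadjusted p under 0.05 this comparison had 2 members in whole lung, Trem2 and Mmp12, and 1 in macrophages, Mmp12.

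Spp1 was carried by different nuclei in the different groups. In 4 of the 6 PBS libraries the highest level was in pericyte-like nuclei, the contractile cells wrapped around capillaries, and not in macrophages. Pericytes and the counts that follow were singled out after their values were seen. Pericyte Spp1 was at 258, 215 and 0 CPM in PBS_Vehicle (107, 48 and 11 nuclei) and 271, 165 and 0 in PBS_NVP-BHG712 (194, 55 and 6 nuclei). The 0 values came from the libraries with fewest pericytes of their group. A Spp1 UMI was found in 39.3%, 18.8% and 0% of pericytes in PBS_Vehicle and in 35.6%, 16.4% and 0% in PBS_NVP-BHG712. In these libraries 0.113% to 0.782% of the nuclei that were neither macrophages nor pericytes carried one, at median depths of 1796 to 5148 UMIs per nucleus against 626 to 4117 in pericytes.

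The defining macrophage markers were near 0 in those pericytes. Of 10000 pericyte UMIs, 62.1 to 80.2 in PBS_Vehicle came from the 7 pericyte markers, 0.358 to 2.18 from the 12 alveolar macrophage markers and 0.537 to 1.10 from the 13 interstitial macrophage markers. In Bleo_Vehicle pericyte Spp1 was at 807, 194 and 252 CPM (26, 145 and 246 nuclei), a range that overlaps with PBS_Vehicle, and in Bleo_NVP-BHG712 it was at 141, 103 and 414 CPM on 2, 6 and 6 UMIs.

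**Figure D2:**
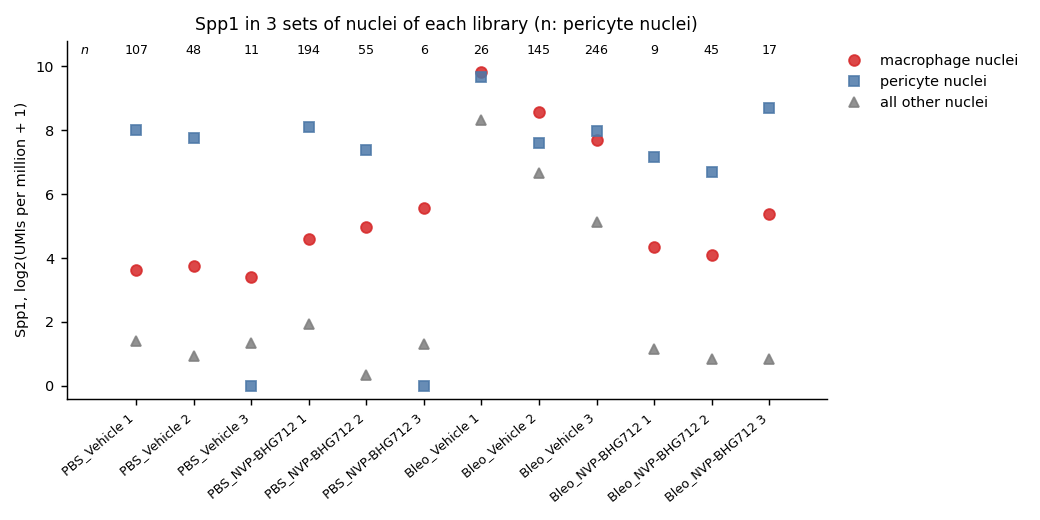
Spp1 as log2(CPM + 1) in macrophage nuclei, pericyte nuclei and all other nuclei of each of the 12 libraries, with the number of pericyte nuclei above. Pericytes lie above macrophages in 4 of 6 PBS libraries, and the other nuclei rise to between 33.8 and 317 CPM only in Bleo_Vehicle.

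Nuclei with many Spp1 UMIs were also counted by class. Of the nuclei with 5 or more Spp1 UMIs, 17 were in PBS_Vehicle (14 pericytes and 1 macrophage) and 14 in PBS_NVP-BHG712 (7 pericytes and 6 macrophages). Bleo_Vehicle had 204 (134 macrophages, 5 pericytes, 30 fibroblasts and 13 unnamed) and Bleo_NVP-BHG712 had 1, a macrophage. The 14 pericytes of PBS_Vehicle were all in replicate 1. Its pericytes were the deepest of that group and held up to 11 Spp1 UMIs, against 4 and 0 in replicates 2 and 3. The 14 nuclei with 20 or more were all in Bleo_Vehicle, and 10 of them were macrophages and 3 fibroblasts.

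Macrophages held 43.1%, 35.1% and 42.9% of all Spp1 UMIs in the Bleo_Vehicle libraries (40.3% ± 4.57, SD, n = 3), while they made up 27.2%, 15.0% and 14.2% of the nuclei. In PBS_Vehicle they were 9.65%, 8.15% and 8.70% of nuclei, and in Bleo_NVP-BHG712 7.62%, 10.7% and 9.69%. The share of nuclei was thus higher in Bleo_Vehicle than in the other groups, without overlap. The same share was higher for 5 other members: 80.7% ± 8.38 for Arg1, 80.5% ± 5.68 for Gpnmb, 76.1% ± 4.66 for Mmp12, 73.0% for Tgfbi and 60.7% for Trem2. For Fabp5 it was 39.8% ± 17.6, highest in replicate 1. For Cd9 it was 40.3% ± 2.34, with venous endothelial nuclei second in level (295 ± 13.6 CPM against 654 ± 210 in alveolar macrophages).

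Within macrophages, the Spp1 levels of the 2 subclasses in Bleo_Vehicle depended on the clustering. With correction for library, alveolar macrophage-like nuclei were at 959, 397 and 208 CPM and interstitial macrophage or monocyte-like nuclei at 750, 330 and 200 CPM. In PBS_Vehicle the interstitial class was at 0, 0 and 23.0 CPM against 13.3, 15.2 and 7.47 in the alveolar class. Mmp12 in PBS_Vehicle was instead in the interstitial class (57.2, 11.2 and 161 CPM against 0, 2.53 and 0). Without correction for library, 1 cluster of 2303 nuclei, 2003 of them from Bleo_Vehicle, took an interstitial name, was at 555 CPM and held 39.0% of the Bleo_Vehicle Spp1 UMIs. The alveolar macrophage cluster of that clustering, with 1042 Bleo_Vehicle nuclei, was at 62.0 CPM and held 3.07%. In Bleo_Vehicle, moreover, interstitial nuclei held 10.0 alveolar macrophage marker UMIs per 10000 against 3.48 in PBS_Vehicle. The pooled macrophages were therefore used for every test.

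Outside macrophages Spp1 was found in every class of the Bleo_Vehicle libraries. With macrophages and pericytes set aside, 12, 14 and 14 classes had at least 20 nuclei, and all of them held Spp1 UMIs. The lowest level was in alveolar type I nuclei in each library, at 134, 46.5 and 17.1 CPM. The highest was in ciliated nuclei of replicate 1 (812 CPM), B lymphocytes of replicate 2 (312 CPM) and T or NK lymphocytes of replicate 3 (91.5 CPM), so neighbours in this order were not stable between libraries. The order also depends on the scale, since alveolar type I nuclei were deep (median of 6214 UMIs in replicate 3). In UMIs per 1000 nuclei the lowest classes were lymphatic endothelial, arterial endothelial and club, the highest were ciliated, B lymphocyte and mesothelial, and highest and lowest were 3.70, 6.29 and 2.42 times apart, against 6.05, 6.70 and 5.36 times by CPM. All nuclei other than macrophages and pericytes were at 317, 101 and 33.8 CPM in Bleo_Vehicle, 0.281 to 2.85 CPM in the PBS groups and 0.789 to 1.21 CPM in Bleo_NVP-BHG712.

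**Figure D3:**
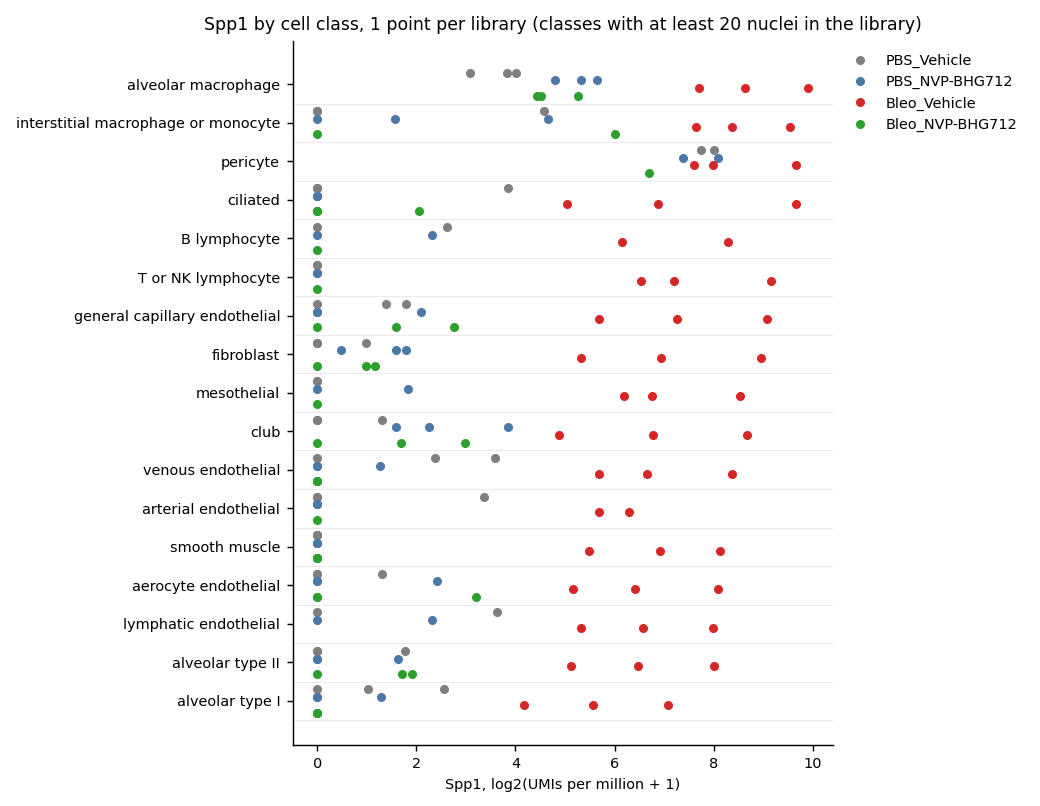
Spp1 as log2(CPM + 1) in each named cell class, 1 point per library with at least 20 nuclei of the class. The Bleo_Vehicle points lie to the right of those of the other groups in every named class but pericytes, and alveolar type I nuclei are lowest in Bleo_Vehicle.

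After depth was made equal, the share of nuclei with a Spp1 UMI stayed higher in macrophages than in alveolar type I nuclei. When each nucleus was thinned to 500 UMIs (no nucleus was left out), 35.7%, 17.8% and 8.11% of macrophages in Bleo_Vehicle carried Spp1, against 11.7%, 3.43% and 1.06% of alveolar type I nuclei, the class with the lowest Spp1 CPM outside macrophages. Unthinned, the shares were 51.2%, 32.4% and 23.4% of macrophages and 29.6%, 12.1% and 11.0% of alveolar type I nuclei, at median depths of 972, 1204 and 2586 and of 1348, 2108 and 6214 UMIs. The thinned macrophage share was 1.05% ± 0.401 in PBS_Vehicle and 0.889% ± 0.237 in Bleo_NVP-BHG712. Fibroblasts, at 22.3%, 6.12% and 1.99% when thinned, lay between alveolar type I nuclei and macrophages in each Bleo_Vehicle library. Pericytes, at 38.5%, 10.3% and 14.2%, were above macrophages in 2 of the 3, whereas by CPM they were above them in replicate 3 only.

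How far Spp1 spread was expressed as its level outside macrophages as a percent of the level inside. Unnamed nuclei count as outside, and unnamed clusters of 47 and 24 nuclei had 11 alveolar macrophage markers raised. In Bleo_Vehicle this was 35.8%, 27.3% and 18.0% (27.0% ± 8.89, SD, n = 3). In PBS_Vehicle it was 39.1% ± 35.4, on few UMIs and with the pericytes outside. With macrophages and pericytes together as the source, the percent was 7.35% ± 7.84 in PBS_Vehicle and 26.5% ± 9.74 in Bleo_Vehicle, so the order of the groups turned with the source chosen. The 2 ranges were 2.70% to 16.4% and 16.0% to 35.3%, which overlap. The library with the highest median mitochondrial share, 1.62%, also had the highest value and the one with 0.682% the lowest, and what part free RNA has in this was not tested. Among nuclei with 500 or more UMIs and a mitochondrial share no higher than 1%, 2 limits changed together, the percent was 18.8%, 18.5% and 13.3%. In the classes thinned to 500 UMIs above, macrophages among them, no nucleus had been left out at that depth. The part of each limit was not tested. Other members spread less: Gpnmb was at 8.89%, 3.74% and 2.10%, Arg1 at 3.61%, 5.83% and 2.95%, Mmp12 at 11.1%, 4.22% and 3.44%, Tgfbi at 9.83%, 7.01% and 3.87% and Trem2 at 14.8%, 11.7% and 8.45%. Spp1 was above all 5 of these in each Bleo_Vehicle library. Cd9 (36.2%, 23.8% and 20.4%) and Fabp5 (18.0%, 37.5% and 29.8%) were close to Spp1 or above it, and Cd9 has high levels in endothelial classes of every group.

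**Figure D4:**
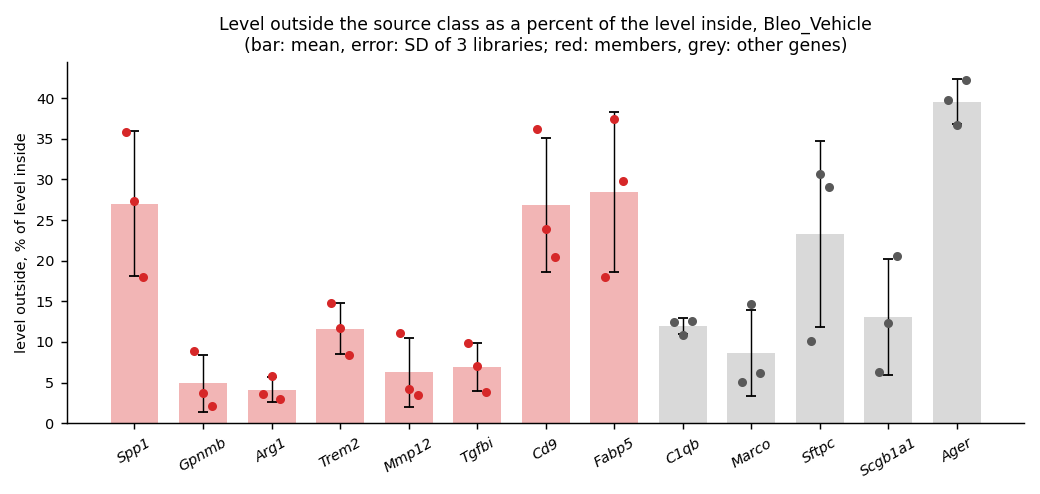
Level outside the source class as a percent of the level inside, in the 3 Bleo_Vehicle libraries. The source is macrophages for the 8 members (red), C1qb and Marco, alveolar type II for Sftpc, club for Scgb1a1 and alveolar type I for Ager (grey), with bars for the mean and SD. Spp1 averages 27.0%, above Gpnmb, Arg1, Trem2, Mmp12 and Tgfbi.

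Genes of other classes gave a scale for these values. In Bleo_Vehicle the surfactant gene Sftpc was at 10.1%, 30.7% and 29.0% outside alveolar type II nuclei, Scgb1a1, a secreted club cell protein, at 6.27%, 12.3% and 20.6% outside club nuclei, and Ager at 39.8%, 36.7% and 42.2% outside alveolar type I nuclei. By CPM Ager was thus above Spp1 in each library. Per nucleus, instead of per UMI, Ager was at 22.7%, 23.7% and 19.7% and Spp1 at 49.4%, 32.7% and 22.1%, so their order turned. In PBS_Vehicle the means were 2.95% ± 1.58, 4.99% ± 2.83 and 12.4% ± 5.55, and the Sftpc and Ager values did not overlap between these groups, whereas Scgb1a1 did (8.03% in replicate 1 of PBS_Vehicle). The macrophage genes C1qb (12.5%, 10.9% and 12.6%) and Marco (5.05%, 14.7% and 6.17%) were below Spp1 in each Bleo_Vehicle library. Marker UMIs of other classes moved with the group as well: per 10000 macrophage UMIs, the 9 alveolar type II markers made up 5.72 to 17.6 in Bleo_Vehicle and 2.09 to 2.62 in PBS_Vehicle, and the 7 club markers 4.66 to 12.4 and 1.90 to 4.01. None of these 16 markers was at 0 in any Bleo_Vehicle library.

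The ratio of Spp1 to the other members differed inside and outside macrophages. There were 6.16, 1.22 and 0.679 Spp1 UMIs per Gpnmb UMI inside the macrophages of the Bleo_Vehicle libraries and 24.8, 8.88 and 5.82 outside. For Tgfbi the ratios were 0.700, 0.916 and 0.945 inside and 2.55, 3.57 and 4.40 outside, and for Arg1 4.23, 7.22 and 5.65 inside and 42.0, 33.8 and 34.5 outside. In each of these pairs, and for Trem2 and Mmp12 in each library, the outside ratio was higher. For Fabp5 it was 68.8, 29.9 and 12.97 inside and 136, 21.7 and 7.83 outside, higher outside in 1 of 3 libraries. For Cd9 inside and outside were close (2.52 and 2.50, 0.709 and 0.811, 0.287 and 0.253).

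Nuclei outside macrophages that held 5 or more Spp1 UMIs were examined for other members. The 70 such nuclei of Bleo_Vehicle, 13 of them unnamed, had 6.03 macrophage marker UMIs per 10000. This compares with 57.0 in the 3243 macrophages and 3.10 in the 14606 other nuclei without Spp1. Their summed level of Gpnmb, Arg1, Trem2 and Mmp12 was 69.0 CPM, against 449 and 12.5 CPM. Their median depth was 3887 UMIs, against 2185 in the nuclei without Spp1, and their median doublet score 0.0646 against 0.0229. What doublets contribute to these nuclei was not tested.

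Inside macrophages, nuclei with and without a Spp1 UMI were compared for the other members. In the Bleo_Vehicle libraries 6.45%, 11.8% and 15.3% of macrophages with Spp1 carried Gpnmb, against 7.44%, 10.5% and 9.54% of those without. For Tgfbi the shares were 40.1%, 18.3% and 9.49% against 42.6%, 17.9% and 9.99%. Arg1 was found in 8.76%, 4.73% and 3.65% of macrophages with Spp1 and in 7.69%, 1.67% and 0.644% of those without, higher in 3 of 3 libraries. Trem2 was at 0.922%, 2.37% and 1.46% against 0.769%, 1.16% and 1.22%, on 2, 4 and 2 nuclei with both genes. Mmp12 was at 1.38%, 4.73% and 8.76% against 1.79%, 2.57% and 2.77%, higher in 2 of 3. No test was made over nuclei. All shares are from nuclei thinned to 500 UMIs, with 217, 169 and 137 macrophages carrying Spp1.

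Spp1 summed over whole lung was at 9.39, 3.33 and 2.05 CPM in PBS_Vehicle, 10.1, 4.59 and 4.84 in PBS_NVP-BHG712, 447, 138 and 57.3 in Bleo_Vehicle and 2.84, 2.76 and 4.83 in Bleo_NVP-BHG712. The Bleo_Vehicle libraries were above all others. In whole lung 6 of the 8 members were higher in Bleo_Vehicle than in PBS_Vehicle, where 1.84% of 14442 genes were called higher, and the same 6 were lower in Bleo_NVP-BHG712 than in Bleo_Vehicle, where 3.55% were called lower. They were Spp1 (log2 change 5.40 ± 0.76, edgeR adjusted p = 0.00509, and -5.94 ± 0.82, adjusted p = 0.00349), Gpnmb (2.32 ± 0.34 and -2.54 ± 0.36), Arg1, Trem2, Mmp12 (3.25 ± 0.44 and -3.09 ± 0.46) and Tgfbi (2.99 ± 0.67 and -2.97 ± 0.68). In these whole-lung sums alone, the number of macrophages, the RNA per macrophage and the UMIs of other nuclei cannot be told apart. For Spp1 in Bleo_Vehicle, 825, 657 and 1141 UMIs lay inside macrophages and 1091, 1217 and 1519 outside. Within macrophages, Spp1 differed by 5.59 and -4.38 as given above. The ratio of whole-lung levels between Bleo_Vehicle and PBS_Vehicle was 21.1 for Arg1 (594 and 15 UMIs, counting interval 12.7 to 38.0) and 12.1 for Trem2 (272 and 12 UMIs, 6.82 to 23.7). These ratios pool the UMIs of a group, so its deepest library weighs most. The fitted log2 changes were 5.82 ± 0.93 for Arg1 and 3.75 ± 0.58 for Trem2. Fabp5 (1.35 ± 0.42, edgeR adjusted p = 0.111) and Cd9 (0.44 ± 0.28, adjusted p = 0.423) did not pass. The Spp1 rise lost its call without replicate 2 of PBS_Vehicle (adjusted p = 0.0501), as did those of Gpnmb (0.0534) and Trem2 (0.0592), and Arg1 lost its call without replicate 2 or 3 of PBS_Vehicle (up to 0.0638). The Tgfbi rise was lost in 10 of 12 left-out fits (adjusted p up to 0.155). In the other direction, calls were lost for Tgfbi without any 1 of the Bleo_NVP-BHG712 libraries (up to 0.116), for Arg1 without replicate 1 or 3 (up to 0.0639) and for Trem2 without replicate 3 (0.0510).

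The effect of NVP-BHG712 differed between bleomycin and PBS for 2 members in whole lung, where 0.298% of genes were called. Spp1 differed by -6.25 ± 1.06 (edgeR adjusted p = 0.0394) and Trem2 by -5.93 ± 1.04 (adjusted p = 0.0423), with 2 Trem2 UMIs in Bleo_NVP-BHG712. Neither was stable, since the calls were lost in 8 and in 9 of 12 left-out fits. In macrophages alone 0 members were called by edgeR, and 0.0563% of genes, although 2 members, Spp1 and Gpnmb, had an unadjusted p under 0.05 and DESeq2 called 1.

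Outside macrophages 5 of the 7 members tested were higher in Bleo_Vehicle than in PBS_Vehicle, with 1.64% of 14118 genes called higher, and 5 were lower in Bleo_NVP-BHG712, with 3.34% called lower. Spp1 was at 9.13, 2.68 and 1.53 CPM outside macrophages in PBS_Vehicle, 8.53, 2.36 and 1.49 in PBS_NVP-BHG712, 323, 103 and 37.1 in Bleo_Vehicle and 1.81, 1.72 and 2.00 in Bleo_NVP-BHG712. The Bleo_Vehicle libraries were above all others. Its log2 change was 5.05 ± 0.85 (edgeR adjusted p = 0.0157), a call lost without replicate 2 or 3 of PBS_Vehicle (0.0791 and 0.0803), and -6.39 ± 0.99 from Bleo_Vehicle to Bleo_NVP-BHG712 (adjusted p = 0.00697), lost without replicate 3 of Bleo_NVP-BHG712 (0.0524). With pericytes left out too, a setting chosen after seeing the data, the Spp1 changes were 6.83 ± 0.86 (edgeR adjusted p = 0.00283) and -7.38 (adjusted p = 0.00286). The outside calls of Gpnmb, Mmp12 and Tgfbi against PBS_Vehicle were each lost in 9 of 12 left-out fits (adjusted p up to 0.150), and the Trem2 call without replicate 2 of PBS_Vehicle (0.0550). In the other direction, the calls of Gpnmb and Trem2 were each lost without replicate 1 or 3 of Bleo_NVP-BHG712 (up to 0.0665 and 0.0836). Those of Mmp12 and Tgfbi were lost without any 1 of the Bleo_NVP-BHG712 libraries, Mmp12 also without replicate 2 and Tgfbi without replicate 1 of Bleo_Vehicle (up to 0.119 and 0.126). The effect of NVP-BHG712 did not differ past the threshold between bleomycin and PBS for any member outside macrophages in edgeR, where 0.198% of genes did, although Spp1, Gpnmb, Trem2, Cd9 and Tgfbi had an unadjusted p under 0.05 and DESeq2 called 2, Spp1 and Trem2.

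**Figure D5:**
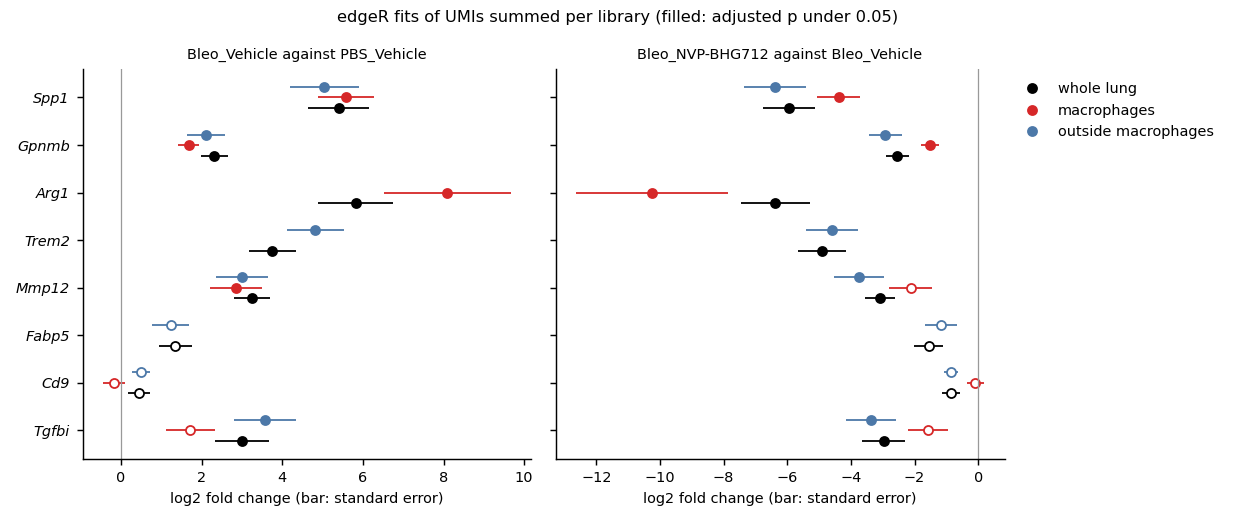
Fitted log2 fold changes of the 8 genes for whole lung, macrophages and nuclei outside macrophages, with the SE as bars and filled points for an adjusted p under 0.05. Spp1 is filled in all 3 fits on both sides (5.05 to 5.59 and -6.39 to -4.38), Cd9 and Fabp5 in none, and the Arg1 values depend on the fit's prior count.

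Genes whose level across the 17 classes of Bleo_Vehicle was most like that of Spp1, among 13854 genes with at least 100 UMIs, were Dock10 (r = 0.90), Pag1 (0.90), Myo1f (0.87), Galnt7 (0.86) and Fgr (0.86). The points are mean log2(CPM + 1) values of classes that come from the same 3 libraries, so no test is given. Among the members Arg1 was closest (0.82), followed by Gpnmb (0.77), Tgfbi (0.76), Trem2 (0.75), Mmp12 (0.74), Fabp5 (0.47) and Cd9 (0.25).

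Around these members, lists of related genes were counted in the macrophage fit. Of 20 lipid and lysosome genes 19 were tested, and 5 were higher in Bleo_Vehicle than in PBS_Vehicle and none lower, beside the 6.42% of all genes called higher. Their median log2 change was 0.18 against 0.00 over all genes. The leading genes were the cathepsin Ctsl (2.53 ± 0.43, edgeR adjusted p = 0.00227), the lipoprotein gene Apoe (2.24 ± 0.30, adjusted p = 0.000706) and the lysosomal tetraspanin Cd63 (1.74 ± 0.32, adjusted p = 0.00357). From Bleo_Vehicle to Bleo_NVP-BHG712, 4 were lower, beside 4.52% of all genes called lower, led by Apoe (-2.64 ± 0.35), Ctsl (-2.39 ± 0.50) and Cd63 (-1.54 ± 0.35). Apoe was at 31.8 ± 15.1 CPM in PBS_Vehicle, 27.3 ± 6.74 in PBS_NVP-BHG712, 131 ± 12.1 in Bleo_Vehicle and 20.1 ± 10.3 in Bleo_NVP-BHG712 (SD, n = 3). Of the 6 partners of Trem2 all were tested, and Apoe, a ligand of Trem2, was the only one called in either comparison.

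Receptors of osteopontin were counted in whole lung. Of 10 tested, 2 were higher in Bleo_Vehicle than in PBS_Vehicle, Cd44 (0.55 ± 0.11, edgeR adjusted p = 0.0319) and Itga5 (1.92 ± 0.45, adjusted p = 0.0464), and 1 was lower, Itga8 (-1.87 ± 0.36, adjusted p = 0.0233), beside 1.84% of genes called higher and 0.595% lower. From Bleo_Vehicle to Bleo_NVP-BHG712 Cd44 (-0.47 ± 0.11) and Itga5 (-2.01 ± 0.46) were lower and Itga8 higher (2.10 ± 0.36), beside 3.55% of genes called lower and 1.96% higher. In Bleo_Vehicle Cd44 was highest in alveolar macrophages, Itga8 in fibroblasts, Itgb6 in alveolar type I nuclei and Itga9 in lymphatic endothelium.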

How the data were processed

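Nuclei of frozen lungs were sequenced as 10x 3' libraries, 1 per lung, and the authors deposited a gene by barcode matrix of raw UMI counts per library, made with Cell Ranger (7.0 in the submitters' notes) on mm10. No ambient RNA was removed from the counts used here. Barcodes with 200 to 6000 genes and at most 5% mitochondrial UMIs were kept and doublets called with Scrublet were removed (0.8% per 1000 nuclei). Nuclei were clustered with scanpy 1.11.5 (2000 variable genes, 30 components, Harmony by library, 20 neighbours, resolution 1). Clusters were named from 25 marker lists, with at least 3 markers higher and a median UMI count of at most 2.2 times that of the sample. Names were thus rebuilt and can differ from those of the study.

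UMIs were summed per library over whole lung, macrophages and all other nuclei and fitted with edgeR 4.0.16 (R 4.3.3; TMM, filterByExpr, quasi-likelihood, all 12 libraries, Benjamini-Hochberg over all genes, called under 0.05). Between libraries that share a replicate number, PBS_NVP-BHG712 and PBS_Vehicle deviated together (correlations of 0.360 to 0.576 in macrophages). The fits given above hold no term for these pairs. In an alternative fit with the replicate block, the count of calls between these groups stayed at 0 members. On simulated counts for macrophages of Bleo_Vehicle against PBS_Vehicle, 48 of 100 genes changed by 1 on the log2 scale and 97 of 100 changed by 2 were recovered, with 14 false calls among 6871 genes.

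Intervals and limits cover counting error only, and summed macrophage UMIs of 206682 to 5537902 per library set the precision. Members and lists were chosen with earlier results of these data known. All 8 members are named whatever their values, with up to 3 called genes in each direction from each of 3 lists, the 5 genes most like Spp1, and 5 genes fixed for the spread check. Alternatives were DESeq2 1.42.0, other filters, clusterings and normalizations, a replicate block and each library left out.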

Additional observations from a re-analysis of the deposited data

Results flagged for a closer look

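The effect of NVP-BHG712 in whole lung differed between bleomycin and PBS for Spp1, by -6.25 ± 1.06 on the log2 scale (edgeR adjusted p = 0.0394), and for Trem2, by -5.93 ± 1.04 (adjusted p = 0.0423). The Spp1 call was lost in 8 of 12 fits that left out 1 library (adjusted p up to 0.154) and the Trem2 call in 9 of 12 (up to 0.146). The bleomycin groups share no run or batch number with each other or with PBS, so the run or batch and the group cannot be told apart.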

How the results depend on the processing

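Of the fold changes recomputed for single genes, 277 in whole lung, 226 in macrophages and 223 outside kept their direction and side of the threshold. Over the 3 fits, 131 lost the call, 24 gained one and 3 reversed. Spp1 shares and outside percents of groups other than Bleo_Vehicle were judged by their SD instead, and 1 of them moved. The reversals were all of Cd9 in macrophages: Bleo_Vehicle against PBS_Vehicle reached 1.97 in interstitial macrophage or monocyte nuclei alone and ran from -0.42 to 0.12 with 1 library left out, and Bleo_NVP-BHG712 against Bleo_Vehicle ran from -0.27 to 0.10. Members called with 1 library left out numbered 1 to 6 (Bleo_Vehicle against PBS_Vehicle), 3 to 7 (Bleo_NVP-BHG712 against Bleo_Vehicle) and 0 to 5 (difference in the NVP-BHG712 effect) in whole lung, 2 to 5, 2 to 4 and 0 to 2 in macrophages, and 0 to 6, 0 to 6 and 0 to 2 outside. In whole lung, only the 6 libraries compared gave 1 for the first comparison, and for the third stricter nuclei (500 or more UMIs, mitochondrial share no higher than 1%) gave 0. In macrophages, interstitial nuclei alone gave 1 and 0 for the first and second, and for the third DESeq2, doublets kept, stricter nuclei and no correction for library each gave 1, and no filter on low counts 2. Outside, the first gave 3 with no filter, 3 with no correction, 1 in stricter nuclei and 1 with 6 libraries, the second 2 in stricter nuclei, and the third 2 in DESeq2 and 1 without pericytes. In stricter nuclei 48.5% of Spp1 UMIs were in macrophages and the outside level was 16.9% of that inside. The causes were not tested.

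With the replicate block the difference in the NVP-BHG712 effect had 4 members in whole lung and 1 outside. The other member counts were 7 and 7 in whole lung, 4 and 4 in macrophages and 5 and 6 outside. For both comparisons with Bleo_Vehicle only 1 of 3 same-numbered pairs deviated together, at a correlation over 0.1. In macrophages, however, all 6 libraries of Bleo_NVP-BHG712 and Bleo_Vehicle were closest to the one with their own number (correlations of 0.0417 to 0.106). Whether the numbers pair these libraries is therefore not settled. Genes called in whole lung for the first and second comparison (352 and 796) became 977 and 1918 with the block, 992 and 1724 in DESeq2, 176 and 327 in stricter nuclei, and 28 for the first with 6 libraries. In macrophages 672 and 492 became 1309 and 962 with no filter, 444 and 272 in stricter nuclei, 385 and 201 with 6 libraries and 10 and 1 in interstitial nuclei, and doublets kept gave 785 for the second. Outside, 308 and 731 became 825 and 1656 with the block, 872 and 1449 in DESeq2, 118 and 201 in stricter nuclei and 31 and 423 with 6 libraries. For the third, the genes called (43, 4 and 28) became 358, 94 and 274 with the block. With 1 library left out the ranges for the first and second were 39 to 1321 and 75 to 2231, 233 to 1163 and 118 to 997, and 39 to 1212 and 69 to 1983. Depth limits Trem2, Fabp5 and Arg1 most, whose macrophage calls were missing or rested on groups with 3 UMIs or fewer.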
